A study of Arabidopsis thaliana with 128 samples.

Results

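The genes described here are 57 Arabidopsis thaliana genes that were nearly silent in wild-type controls and expressed in controls of a mutant without functional DDM1. They were selected from 29417 nuclear genes on normalized counts, which are the reads of a gene divided by the size factor of its library. A gene was kept when its mean was under 2 in wt and at least 10 in ddm1, both in seedlings and in stem cell nuclei of control plants at day 7. The differences between wt and ddm1 in these 4 groups, and any change by heat measured against them, are therefore given as descriptions without a test. All other groups were not used for the selection.

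DDM1 is a chromatin remodeler of the SWI/SNF family that is needed to keep DNA methylation, the linker histone H1 and histone H2A.W in order in heterochromatin. Loss of DDM1 is known for releasing transposable elements and a set of genes that lie in or resemble repeats, often with loss of methylation at CG, CHG and CHH sites. RNA polymerase IV makes the precursors of small RNAs that direct DNA methylation in a separate pathway, mostly at short elements and at the edges of long ones.

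The study compared gene expression after a heat treatment in 128 libraries of 26 groups. Every plant carried pCLV3::H2BmCherry, a reporter that marks nuclei of shoot stem cells, in the Col-0 background. The wt plants carried this reporter alone, the poliv plants in addition nrpda-3, a T-DNA insertion in the gene of the largest subunit of RNA polymerase IV, and the ddm1 plants the T-DNA insertion allele ddm1-10. Controls (C) stayed at 21 °C and heat-treated plants (H) were kept at 37 °C for 24 h before day 7. Seedling tissue without roots (T7, 10 plants per library) and 100 sorted stem cell nuclei per library (S7) were taken at day 7, for wt also nonstem nuclei (N7). Inflorescence meristems (I28, 10 per library) and stem cell nuclei (S28) were taken at day 28, when heat-treated plants had recovered for 21 days. Groups held 3 or 4 libraries for T7, I28 and S28, 8 for S7 and 6 for N7. The methods of the paper name another version of the Smart-seq library preparation for S7 than for T7, I28 and S28. Contrasts of S7 with these materials therefore also differ in library preparation. The sources do not say for each library that it came from a separate set of plants. Each p-value therefore reflects variation among libraries, which may be technical. In material of mixed cells, fewer expressing cells and less RNA per cell cannot be told apart.

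Depth ranged from 8614232 to 17611137 reads in T7 libraries, from 7456669 to 15016702 in I28, and from 1853992 to 6999950 in libraries of nuclei, and 1 read was worth 0.428 to 2.37 normalized counts. DDM1 (AT5G66750) itself had 26.5 ± 12.1 (SD, n = 4) normalized counts in wt CT7 and 0.985 ± 0.66 (SD, n = 4) in ddm1 CT7, and 60.3 ± 21.96 (SD, n = 3) in wt CI28 and 5.09 ± 3.27 (SD, n = 4) in ddm1 CI28. In heated seedlings the genotypes overlapped, with 16.9 ± 7.13 (SD, n = 4) in wt HT7 and 11.2 ± 7.08 (SD, n = 4) in ddm1 HT7. In nuclei of the controls at day 7 it was not lower in ddm1, with 82.8 ± 27.3 (SD, n = 8) in wt CS7 and 218 ± 90.1 (SD, n = 8) in ddm1 CS7, and the gene-level count does not show on which side of the insertion the reads lie. The name ddm1 therefore stands for the libraries labelled so. CLV3, a stem cell gene, had group medians of 2.64 to 31.6 normalized counts in S7 and 6.74 to 13.6 in S28, and a median of 0 in both N7 groups. The sum of 5 anther and pollen markers was 3291 to 4270 in wt CI28 and 378 to 2109 in ddm1 CI28, and 1024 to 1134 in wt CS28 and 251 to 477 in ddm1 CS28. All 5 markers were detected in these groups. The sum of 6 leaf mesophyll markers was 41211 to 56535 in wt CS7 and 79181 to 106995 in ddm1 CS7, and 31579 to 33465 in wt CS28 and 48498 to 59487 in ddm1 CS28. The sum of 5 shoot meristem markers was 209.5 to 632 in wt CS7 and 205.1 to 295 in ddm1 CS7, and 415 to 790 and 54.2 to 360 in HS7. The part of such differences in the values of the 57 genes, and of the other genes compared here, was not tested.

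The 57 genes are a mixed group in which repeated and poorly characterized genes are frequent. In the annotation, 42 code for proteins, 11 are transcribed pseudogenes and 4 are non-coding RNAs. Pseudogenes make up 19.3% of the 57 and 3.24% of the 28929 annotated nuclear genes. Proteins named uncharacterized or hypothetical account for 19 of the 57 (33.3%), against 8.62% of all genes. A copy elsewhere in the genome with at least 80% identity over at least 50% of the length exists for 25 of the 57 (43.9%), against 16% of all genes, and at 90% identity or more for 21 (36.8% against 7.6%). Exons add up to a median of 1131 bases, compared with 1516 for all genes. These shares describe genes that were selected on expression and carry no test.

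Small families recur among them. Genes were grouped by words in their annotated names, so the totals given need not be the sizes of the families. Of 27 annotated genes related to beta-galactosidase, an enzyme family that removes galactose from cell wall and other glycans, 6 were among the 57 (AT3G24542, AT3G44070, AT4G29200, AT5G01080, AT5G24480 and the pseudogene AT5G33251). Of 31 genes named for ovate proteins or as transcription repressors, 3 were included (OFP9, AT4G04030, with AT2G19850 and AT3G54730). Ovate family proteins are plant transcription repressors. The list also held 5 of 43 genes named myosin heavy chain-like (AT1G32010, AT5G38190 and the pseudogenes AT2G14410, AT4G06582 and AT4G06608). Of 15 genes named for Ulp1 proteases or the domain DUF1985, 3 were included (AT5G28235, AT5G28810 and AT5G35050). Of 43 genes with MADS in their names, 2 were included (AT1G59920 and AT1G59930). Ulp1 proteases cleave the small modifier SUMO in yeast and related enzymes do so in plants, and such domains are also found in some plant transposons. MADS-box proteins are transcription factors best known from flower development.

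The genes lie on all chromosomes, with 14 on chromosome 1, 12 on chromosome 2, 6 on chromosome 3, 11 on chromosome 4 and 14 on chromosome 5. A median of 62 protein-coding genes started within 250 kb on either side of them, against 136 for all genes. Genes with at most 100 such neighbours, the poorest by this measure, included 36 of the 57 (63.2%) and 10.2% of all genes. AT4G06582, with 8 protein-coding genes around it, had the fewest, and AT4G22390 and AT5G41660, with 147 each, had the most. Neighbours within 20 kb of each other were AT1G32000 and AT1G32010 (432 bases apart), AT1G59920 and AT1G59930 (1082 bases), AT2G11773 and AT2G11778 (3929 bases) and AT5G28230 and AT5G28235 (4698 bases).

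**Figure D1:**
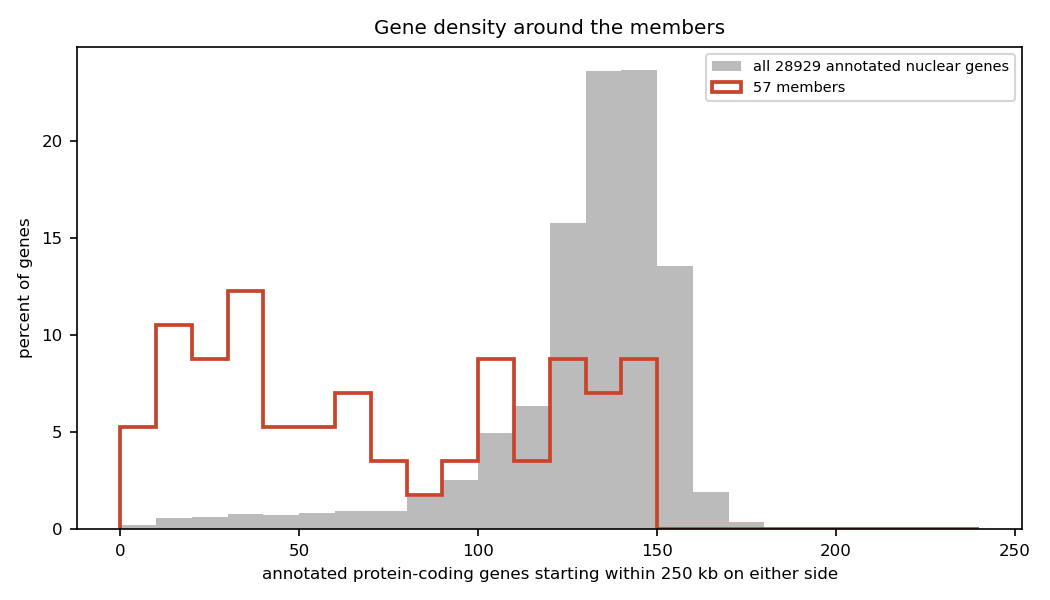
Histogram of the number of annotated protein-coding genes that start within 250 kb on either side (x axis) against the percentage of genes (y axis), for all 28929 annotated nuclear genes (grey) and the 57 genes (red outline). The red outline is spread over low and middle counts with a median of 62, while the grey bars peak around the median of 136.

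Near-identical members share reads in ways that the counting could divide differently. The protein of OFP9 (288 residues) was contained without a change in the protein of AT3G54730 (387 residues), and AT2G19850 (153 residues) matched AT3G54730 at 148 positions (96.7% of the shorter protein). The 2 MADS-box proteins, of 132 residues each, were identical at 129 positions (97.7%). The protein of AT1G32000 (181 residues) matched AT5G38190 at 174 positions (96.1%). Values of such genes are uncertain one by one, because reads that fit several copies may have been assigned to any of them. HISN6B (AT1G71920), an enzyme gene of histidine synthesis, has a copy outside the list, HPA1 (AT5G10330), with 99.5% identity over the whole gene. AT1G77960, AT2G05915 and AT2G07213 overlap another gene of the table, and since the sources used here do not say whether strand was used, their reads cannot be told apart from those of AT1G77950, AT2G05914 and AT2G07215.

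The 100 bases upstream of the annotated start are shown for 2 pairs of near-identical members and for HISN6B beside HPA1, because the genes are alike in sequence while the DNA before them may or may not be. They are written in the direction of transcription, from TAIR10.1 (RefSeq), in lower case with every CG in capitals, the dinucleotide at which maintenance methylation is symmetric.
AT1G59930 (chr1:22061517-22061616, minus strand): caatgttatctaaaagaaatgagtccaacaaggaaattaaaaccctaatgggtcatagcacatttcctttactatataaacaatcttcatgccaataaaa
AT1G59920 (chr1:22059843-22059942, minus strand): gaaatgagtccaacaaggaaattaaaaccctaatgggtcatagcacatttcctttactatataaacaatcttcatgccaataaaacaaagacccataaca
AT2G19850 (chr2:8568469-8568568, plus strand): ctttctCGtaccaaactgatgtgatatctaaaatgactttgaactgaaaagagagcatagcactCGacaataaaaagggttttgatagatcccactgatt
AT3G54730 (chr3:20258903-20259002, plus strand): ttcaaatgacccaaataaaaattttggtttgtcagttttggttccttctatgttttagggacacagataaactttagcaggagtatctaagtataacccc
HISN6B, AT1G71920 (chr1:27066848-27066947, plus strand): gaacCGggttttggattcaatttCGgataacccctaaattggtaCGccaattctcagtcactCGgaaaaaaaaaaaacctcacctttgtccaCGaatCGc
HPA1, AT5G10330 (chr5:3250965-3251064, minus strand): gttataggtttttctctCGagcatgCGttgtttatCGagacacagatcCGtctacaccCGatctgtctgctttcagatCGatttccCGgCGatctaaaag
Over 250 bases the upstream DNA of the MADS-box pair was identical at 94% of aligned positions. The ovate genes AT2G19850 and AT3G54730 shared 50% and HISN6B and HPA1 52% of positions. Within 250 bases, AT1G59930 and AT1G59920 had 7 and 6 CG, AT2G19850 and AT3G54730 had 2 and 1, HISN6B had 9 and HPA1 12. A CG (which reads the same on both strands) occurred in this window of 54 of the 57 genes (94.7%) and of 96% of all genes, with medians of 6 and 5. The table holds no methylation values, so none are given for these sites.

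In the groups used for the selection, the sum of the 57 genes was 7.09 ± 1.37 normalized counts in wt CT7 (SD, n = 4) and 27147 ± 6332 in ddm1 CT7 (SD, n = 4), and 28.2 ± 12.04 in wt CS7 (SD, n = 8) and 8300 ± 388 in ddm1 CS7 (SD, n = 8). Single wt seedling libraries had reads for 2 to 5 of the genes, and single ddm1 seedling libraries for 56 or 57. These 57 genes took 0.0892 to 0.145% of all counts in ddm1 CT7. Of all nuclear genes, 8453 were under the limit in both wt groups and 13644 at or over the limit in both ddm1 groups. With seedlings alone 100 genes would have been selected, and with stem cell nuclei alone 213. Stricter limits of 1 and 20 would have left 28 genes and looser limits of 4 and 5 would have given 141.

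The values next to the limits were as follows. AT5G28230 (1.78) and AT4G22390 (1.25) were the closest inside the limit in wt CT7, and AT5G38005 (2.52) and AT2G33175 (2.60) the closest outside. In wt CS7 these were AT4G29200 (1.803) and AT5G24480 (1.60) inside and AT2G05914 (2.05) and AT4G08691 (2.12) outside. AT2G05914 is the gene that overlaps AT2G05915. In ddm1 CT7, AT1G36230 (10.2) and AT4G06608 (10.2) were just inside and AT2G13430 (9.85) and AT4G08430 (9.64) just outside, all as mean normalized counts. In ddm1 CS7, AT4G22390 (10.3) and AT4G19240 (10.9) were inside and AT5G35120 (8.89) and AT1G36078 (8.33) outside. The gene AT4G08430 is a copy of AT5G28235, and AT5G35120 a MADS-box copy of the pair AT1G59920 and AT1G59930, so relatives of members lie directly beyond the limits.

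Levels in ddm1 spanned a wide range and differed between tissue and nuclei. Seedlings and stem cell nuclei of day 7 differ in cells, kind of RNA and library preparation, which cannot be told apart. Per kilobase of exon, AT1G59930 stood highest in ddm1 CT7 with 24230 normalized counts, followed by AT1G59920 with 7097, the non-coding RNA AT2G15555 with 2819 and AT4G16215, an uncharacterized protein, with 2353. In ddm1 CS7 the order was another, with the short gene AT2G11778 (1451 normalized counts per kilobase), AT3G29639 (793) and AT2G11773 (637) at the top, all annotated as uncharacterized proteins. In ddm1 CI28 AT1G59930 (6970), AT2G15555 (5405) and AT4G16215 (5187) led again.

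**Figure D2:**
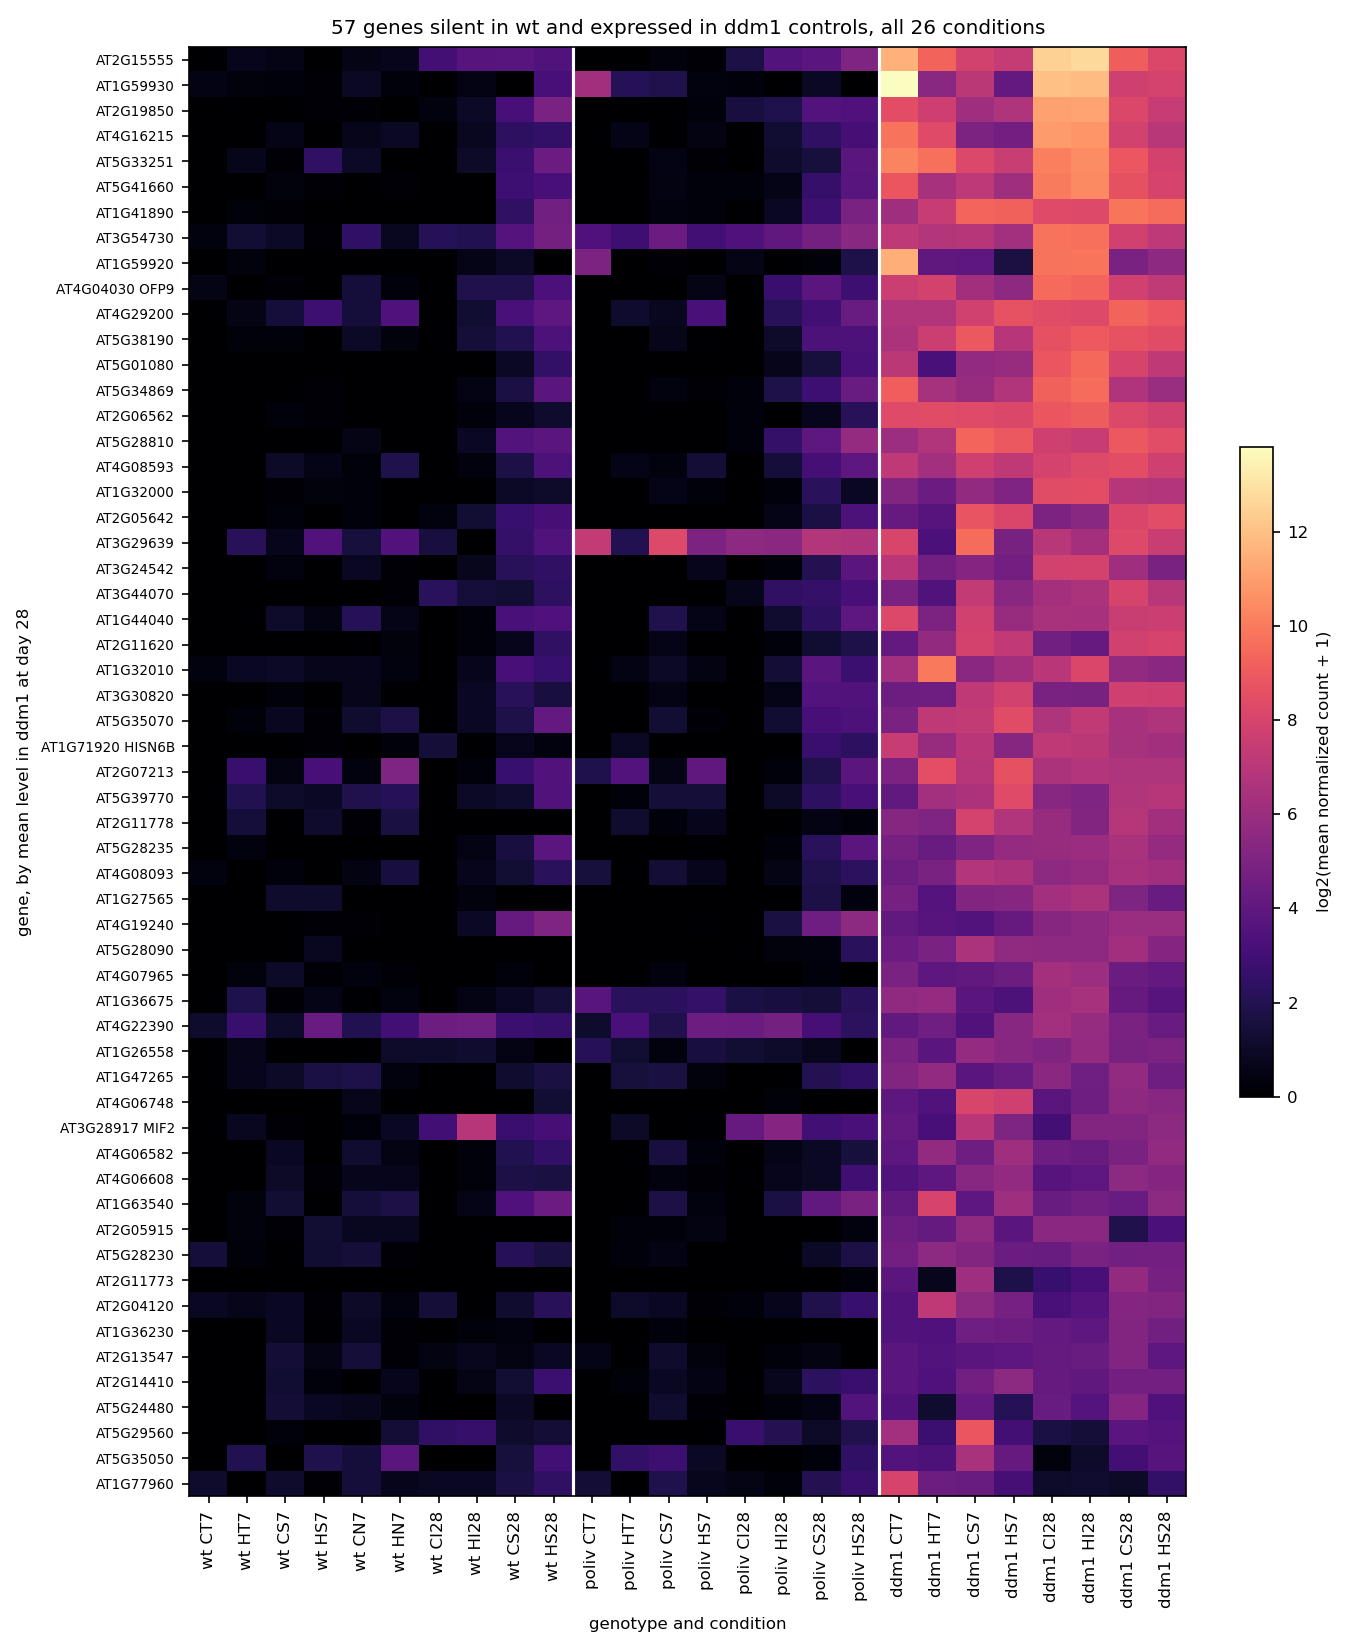
Heatmap of the 57 genes (rows, ordered by their mean level in ddm1 at day 28) in the 26 groups (columns, with white lines between wt, poliv and ddm1), with log2(mean normalized count + 1) as color. The ddm1 columns are bright over almost the whole height, AT3G29639 also shows in most poliv columns, and the wt and poliv columns of S28 are lighter than those of day 7.

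Whether the genes were also silent in wt and expressed in ddm1 where they had not been selected was asked in 6 conditions. With the same limits (mean under 2 in wt and at least 10 in ddm1), 44 of the 57 qualified in HT7, while 0.405% of all nuclear genes did so. The count was 44 in HS7 (1.4% of all genes), 46 in CI28 (0.507%), 48 in HI28 (0.442%), 26 in CS28 (0.415%) and 15 in HS28 (0.405%). The lower numbers in S28 came from wt, where 28 of the 57 means were under 2 in CS28 and 17 in HS28, while 54 of the ddm1 means were at least 10 in both. A set of 10 genes met the limits in all 6 conditions, for which no share over all genes was taken.

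By limma with Benjamini-Hochberg adjustment over all features tested (a call needs an adjusted p below 0.05 and a log2 fold change beyond 1), most of the tested members were higher in ddm1 in each condition and none was called lower. Over all 57 genes, with no test, the ddm1 mean was above the wt mean for 57 in HT7, 57 in HS7, 56 in CI28, 55 in HI28, 56 in CS28 and 57 in HS28. The share of all nuclear genes with a higher ddm1 mean was not taken, so nothing is read from these numbers. In HT7, 45 of 50 tested members rose, against 1.54% of all nuclear genes tested. The numbers were 48 of 51 in HS7 (5.33% of all genes), 50 of 53 in CI28 (1.3%), 51 of 52 in HI28 (1.34%), 53 of 54 in CS28 (2.59%) and 33 of 54 in HS28 (0.52%). The remaining 3 to 7 of the 57 had a mean under 5 over the libraries compared and were not tested, and since wt is low a member reached this mean mostly through ddm1. The median log2 fold change of the tested members was 4.93, 5.46, 5.88, 6.10, 5.42 and 4.20 in this order of conditions, and that of all nuclear genes between -0.07 and 0.01. With wt groups that were 0 in every library set to a floor of 3 reads over the group, the median log2 ratio of the group means was 6.06, 7.63, 5.94, 7.37, 5.78 and 4.24. Of the 57, 27 were called in all 6 conditions, 16 in 5, 6 in 4, 2 in 3, 3 in 2, 2 in 1 and AT5G35050 in none. No share over all genes was taken for calls in several conditions, so nothing is read from this split.

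**Figure D3:**
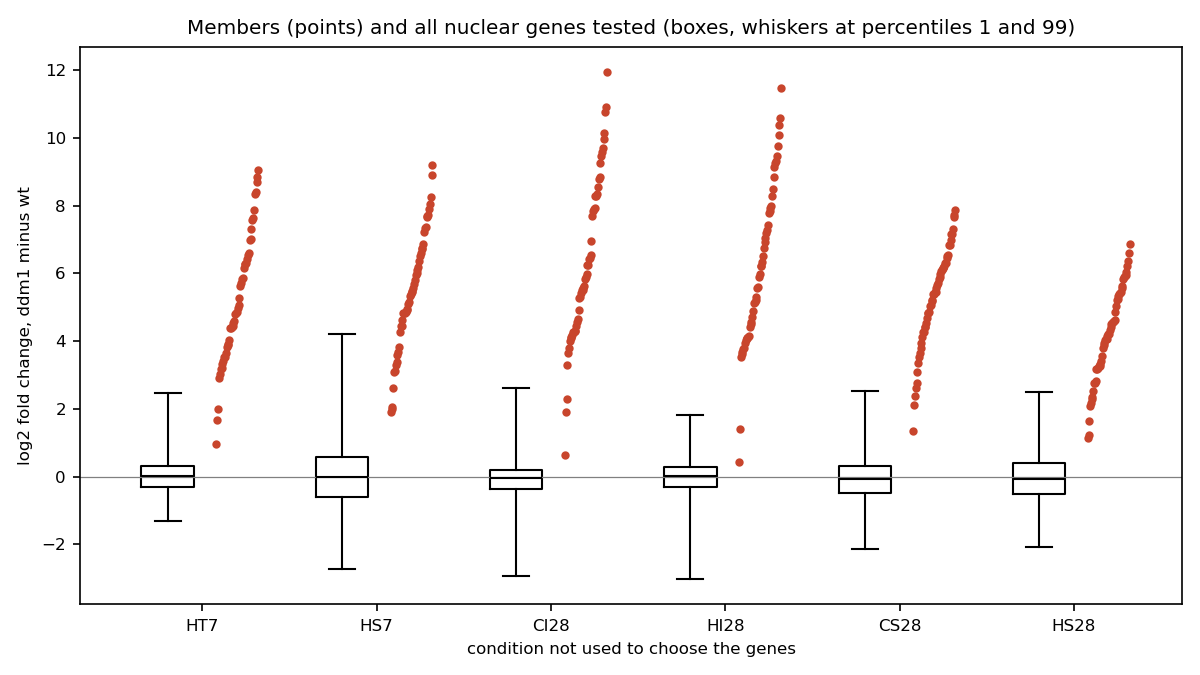
Log2 fold change of ddm1 over wt on the log2(normalized count + 1) scale (y axis) in the 6 conditions not used for the selection (x axis), for each tested member (red points) and for all nuclear genes tested (boxes with median and quartiles, whiskers at percentiles 1 and 99). The points span 0.43 for AT3G28917 in HI28 to 11.93 for AT1G59930 in CI28. AT3G28917 in HI28 is drawn as higher on this scale, although its group mean was lower in ddm1 (36.2) than in wt (123). Members with a mean under 5 over the compared libraries are not drawn. They include AT5G29560 in CI28 and HI28 and AT1G77960 in CS28, whose means were lower in ddm1.

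Of all tests between ddm1 and wt, the MADS-box gene AT1G59930 in CI28 gave the largest log2 fold change. AT1G59930 had 5514, 3559, 2329 and 5131 normalized counts in the ddm1 CI28 libraries and 0 in each wt library, at least 3266-fold higher with the floor of 3 reads over the wt group (log2 fold change 11.93 ± 0.27 (SE), limma adjusted p = 1.32e-11). AT1G59920 had 1141, 902, 424 and 1068 in ddm1 CI28 and 0 in wt (log2 fold change 9.69 ± 0.32 (SE), limma adjusted p = 4.37e-10). Both genes are thus far above wt in meristem tissue without any overlap of libraries. In nuclei their levels were lower, with 258, 260.5, 156 and 191 for AT1G59930 in ddm1 CS28 and 0 in wt (log2 fold change 7.73 ± 0.37 (SE), limma adjusted p = 3.09e-09). AT1G59920 reached only 40.3, 38.7, 18.8 and 14.9 there, with 0, 0, 1.97 and 2.06 in wt.

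The 3 ovate genes, which code for transcription repressors, were each higher in ddm1 CI28. OFP9 (AT4G04030) had 462, 695, 1043 and 735 normalized counts in ddm1 CI28 and 0 in each wt library, at least 580-fold higher (log2 fold change 9.46 ± 0.28 (SE), limma adjusted p = 1.15e-10). AT2G19850 had 1603, 1907, 2276 and 3289 in ddm1 and 0, 0 and 0.954 in wt (log2 fold change 10.77 ± 0.30 (SE), limma adjusted p = 7.23e-11). AT3G54730 was not fully silent in wt, with 1.70, 1.14 and 6.68 against 667, 619, 1085 and 1198 in ddm1 (log2 fold change 7.92 ± 0.44 (SE), limma adjusted p = 8.94e-07). All ddm1 libraries were above all wt libraries for each of them in CI28. In HS28 the distance was smaller, as AT2G19850 had 0, 5.75, 61.0 and 47.2 in wt and 213, 163 and 153 in ddm1 and did not pass the test (log2 fold change 3.88 ± 1.49 (SE), limma adjusted p = 0.308).

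HISN6B (AT1G71920) codes for a histidinol-phosphate aminotransferase, and was singled out after its values were seen because its copy HPA1 is expressed in wt. HISN6B had 194, 143, 89.9 and 149.5 normalized counts in ddm1 CI28 and 5.10, 0 and 0 in wt CI28 (log2 fold change 6.26 ± 0.61 (SE), limma adjusted p = 2.99e-05). HPA1 (AT5G10330) had 109, 114, 161 and 227 in ddm1 CI28 and 107, 109.7 and 73.5 in wt CI28, so wt plants had transcript of the copy while HISN6B was at or near 0. In CS28 HISN6B had 79.95, 111, 62.9 and 79.9 in ddm1 and 0, 0, 0 and 2.75 in wt (log2 fold change 5.89 ± 0.53 (SE), limma adjusted p = 1.97e-06). HPA1 overlapped between the genotypes there, with 54.4 to 98.1 in ddm1 and 56.4 to 73.6 in wt. In HI28 it did not overlap, with 185 to 198 in ddm1 and 76.9 to 105 in wt. With 99.5% identity between the genes, how reads were divided between them was not tested.

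Among the 6 genes related to beta-galactosidase, the pseudogene AT5G33251 had the highest counts over the ddm1 groups of day 28, not corrected for length. It had 1034, 1182, 1122 and 1170 normalized counts in ddm1 CI28 and 0 in every wt library, at least 891-fold higher (log2 fold change 10.14 ± 0.19 (SE), limma adjusted p = 2.02e-12). AT4G29200, a protein-coding gene of the family, had 692, 560.3, 660.3 and 599.9 in ddm1 CS28 and 5.21, 5.93, 20.7 and 1.38 in wt CS28 (log2 fold change 6.51 ± 0.60 (SE), limma adjusted p = 0.000141). AT4G29200 was one of the members with more transcript in nuclei than in tissue, whereas AT5G33251 had more in tissue. AT5G24480 stayed low, with a mean of 18.5 in ddm1 CI28.

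Non-coding and pseudogene transcripts reached some of the highest levels. AT2G15555, annotated as a non-coding RNA, had 4467, 5765, 6819 and 6147 normalized counts in ddm1 CI28 and 11.9, 5.71 and 3.82 in wt CI28, 812-fold higher by the group means (log2 fold change 9.58 ± 0.30 (SE), limma adjusted p = 2.55e-10). It was present in all wt CI28 libraries, so it was not silent in wt at day 28. AT1G41890, a pseudogene of a proline transporter, was most abundant in nuclei, with 923, 812, 979 and 993 in ddm1 CS28 and 0, 2.22, 6.89 and 8.25 in wt (log2 fold change 7.88 ± 0.69 (SE), limma adjusted p = 0.000138).

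Of the genes without known function, AT4G16215 and AT5G41660 stood out by level. AT4G16215 had 1809, 2058, 1864 and 1987 normalized counts in ddm1 CI28 and 0 in all wt CI28 libraries, at least 1525-fold higher (log2 fold change 10.91 ± 0.17 (SE), limma adjusted p = 7.17e-13). AT5G41660 had 976, 1026, 810.4 and 1243 in ddm1 CI28 and again 0 in wt, at least 801-fold higher (log2 fold change 9.97 ± 0.21 (SE), limma adjusted p = 6.99e-12). AT5G38190, a myosin heavy chain-like gene, had 285, 288, 404 and 601 in ddm1 CI28 and 0 in wt (log2 fold change 8.56 ± 0.31 (SE), limma adjusted p = 7.84e-10). These 3 genes were called in all 6 conditions.

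The Ulp1 proteases and the myosin heavy chain-like genes each have close relatives in or beyond the list. AT5G28235 had 89.0, 111, 81.1 and 75.1 normalized counts in ddm1 CS28 and 0.869, 0, 4.92 and 2.06 in wt CS28 (log2 fold change 5.21 ± 0.51 (SE), limma adjusted p = 4.39e-06). Its copy AT5G45570, with 99.4% identity, is not a member because its mean in wt CS7 was 8.999. AT5G28810 had 425, 418, 572 and 508 in ddm1 CS28 and 1.74, 0, 24.6 and 17.9 in wt CS28 (log2 fold change 6.31 ± 1.09 (SE), limma adjusted p = 0.00605). The myosin heavy chain-like gene AT1G32010 had 92.1, 88.4, 144 and 204 in ddm1 CI28 and 0, 0 and 0 in wt CI28 (log2 fold change 6.97 ± 0.37 (SE), limma adjusted p = 3.83e-08), and its neighbour AT1G32000 had 258, 239, 296 and 519 and 0, 0 and 0 (log2 fold change 8.29 ± 0.31 (SE), limma adjusted p = 1.29e-09). Both match AT5G38190 in protein sequence, with which reads may be shared.

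**Figure D4:**
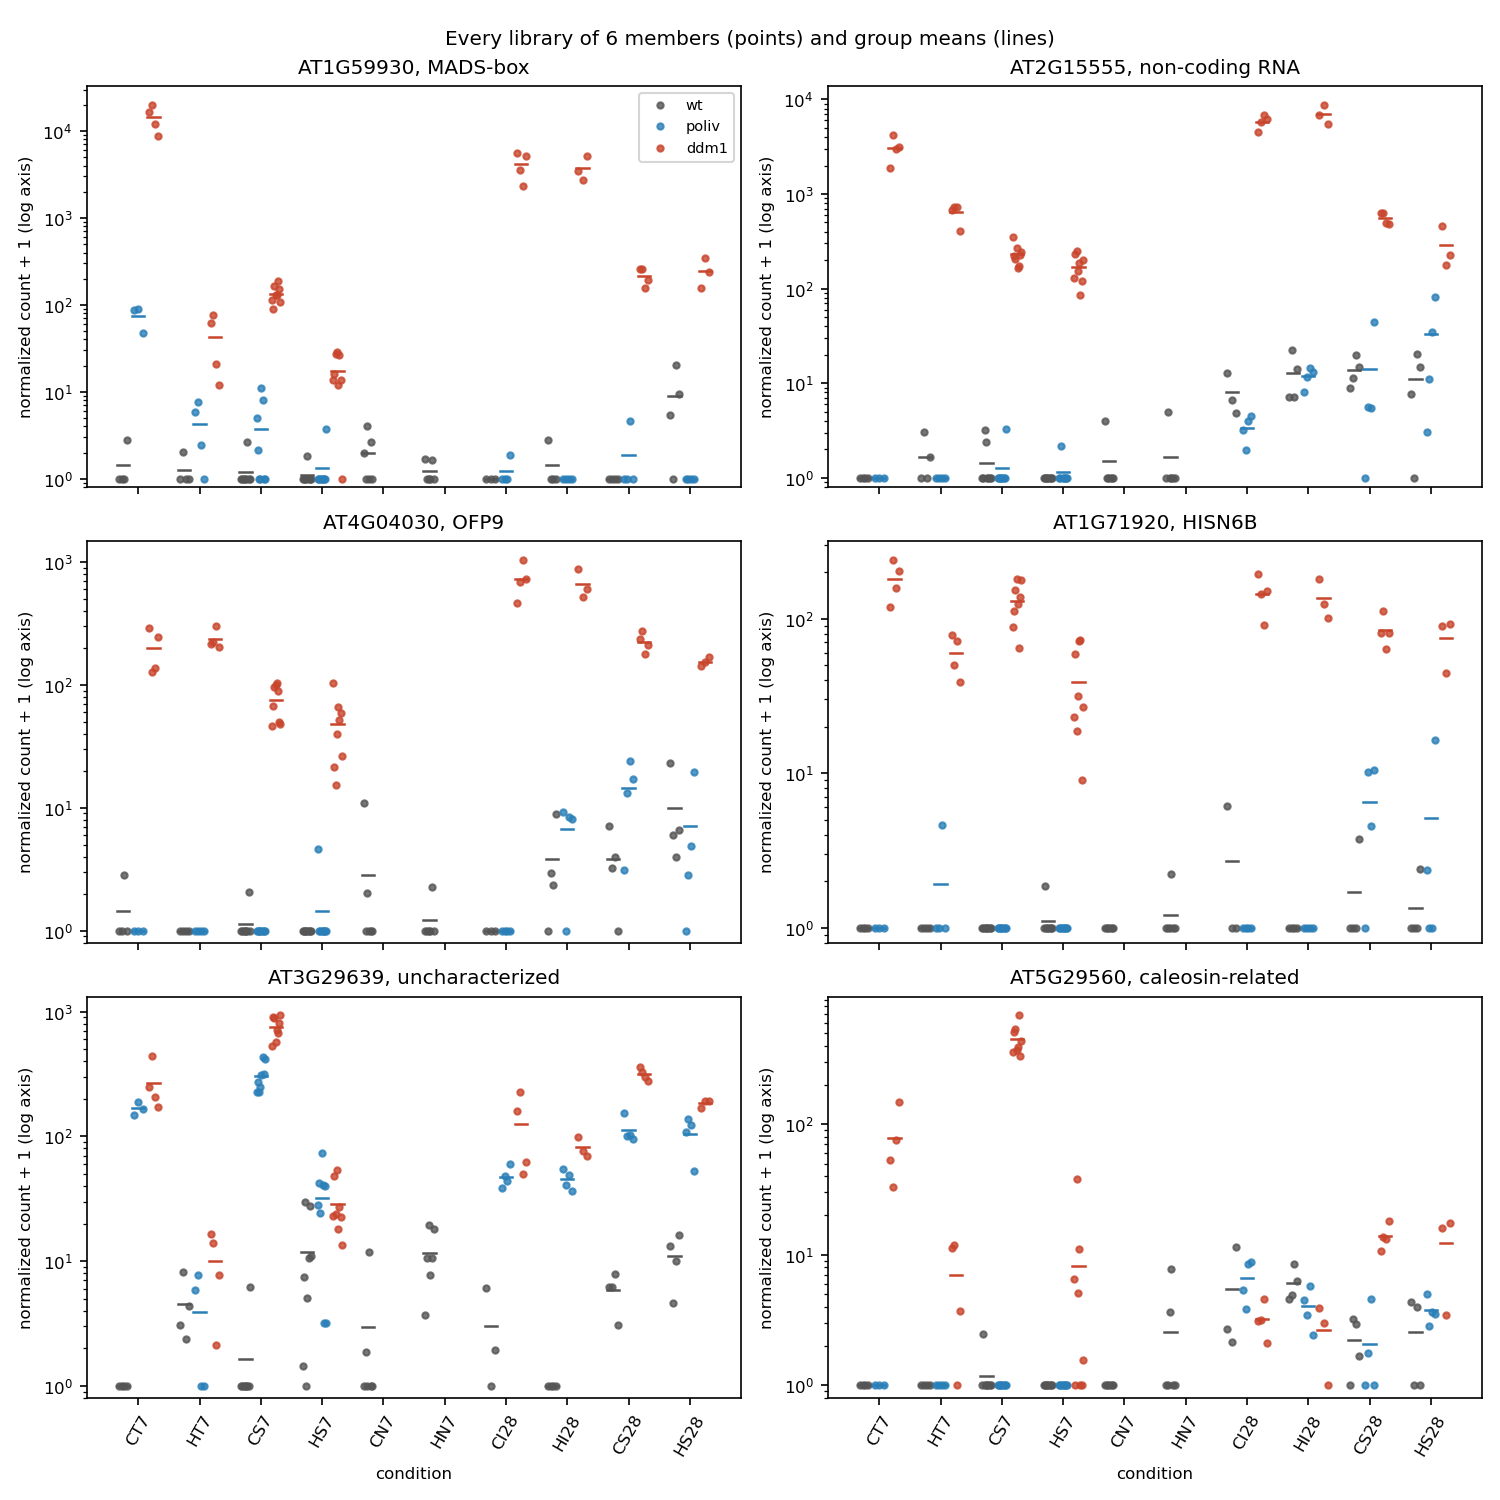
Normalized count + 1 on a log axis (y axis) in every library (points) and group means (lines) of 6 members by condition (x axis), for wt (grey), poliv (blue) and ddm1 (red). The ddm1 libraries of AT1G59930, AT2G15555, OFP9 and HISN6B are far above the others at day 28, AT3G29639 is also above wt in poliv, and AT5G29560 is high in ddm1 CS7 but at the level of wt in CI28.

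Members that were not tested or not called varied between conditions. In HT7, AT1G36230, AT2G11773, AT2G14410, AT3G28917, AT5G01080, AT5G24480 and AT5G29560 were not tested, and AT1G59920, AT2G05642, AT3G29639, AT4G22390 and AT5G35050 were tested and not called. In HS7, AT1G36675, AT1G59920, AT1G77960, AT2G11773, AT5G24480 and AT5G29560 were not tested, and AT3G29639, AT4G22390 and AT5G35050 were not called. In CI28, AT1G77960, AT2G11773, AT5G29560 and AT5G35050 were not tested, and AT2G04120, AT2G05915 and AT3G28917 were not called. In HI28, AT1G77960, AT2G11773, AT5G24480, AT5G29560 and AT5G35050 were not tested and AT3G28917 was not called. In CS28, AT1G77960, AT2G05915 and AT5G35050 were not tested and AT1G63540 was the tested member that was not called. In HS28 the 21 members not called included AT1G32010, AT2G19850 and AT5G33251. Without ddm1 HS28 replicate 2, 22 members were called in HS28, the lowest count when single libraries were left out.

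A few of the genes did not keep the difference. AT1G77960, annotated as a repressor ROX1-like protein, had 228, 528, 129.8 and 140.0 normalized counts in ddm1 CT7 but only 0, 1.08, 2.398 and 1.11 in ddm1 CI28, beside 1.70, 0 and 0.954 in wt CI28. AT5G29560, a caleosin-related gene of a family of oil body proteins, had 449.5 in ddm1 CS7 and 2.24 in ddm1 CI28, where wt had 4.45, all as group means. In HI28, AT5G29560 had 2.93, 2.01 and 0 in ddm1 and 3.54, 3.92, 7.55 and 5.29 in wt, with every ddm1 library below every wt library. In CS28, AT1G77960 had 0, 1.81, 1.95 and 0.596 in ddm1 and 0, 1.48, 6.89 and 0.688 in wt. Both genes had too few reads for a test in CI28 and HI28, and AT5G29560 was called higher in CS28 (log2 fold change 2.78 ± 0.67 (SE), limma adjusted p = 0.00666). AT5G35050, the gene with the domain DUF1985, had 1.06, 0, 0 and 0 in ddm1 CI28 and 0 in all wt CI28 libraries. In HS28 it had 10.3, 3.70 and 22.4 in ddm1 and 10.02, 0, 16.4 and 1.39 in wt, which overlapped (log2 fold change 1.22 ± 1.22 (SE), limma adjusted p = 0.787). These 3 genes had the lowest day-28 means of the 57, with 7.05 for AT5G29560, 5.19 for AT5G35050 and 2.04 for AT1G77960 over the 4 ddm1 groups.

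MIF2 (AT3G28917), a mini zinc finger protein that takes part in ending stem cell activity in flowers, differed by material. It had 32.9, 36.9, 45.4 and 25.6 normalized counts in ddm1 CS28 and 12.2, 4.45, 3.94 and 2.06 in wt CS28 (log2 fold change 2.63 ± 0.47 (SE), limma adjusted p = 0.000838). In inflorescences it was present in both genotypes, with 54.7, 16.1 and 37.9 in ddm1 HI28 and 255, 234, 0.687 and 2.65 in wt HI28, and did not pass the test (log2 fold change 0.43 ± 2.22 (SE), limma adjusted p = 0.935). The wt HI28 libraries 1 and 2 were high and the other two near 0, so the group is split. Leaving out the wt HI28 replicate 3 turned the log2 fold change to -0.86, and leaving out replicate 4 to -0.49. The alternatives with pseudocount 5 (-0.10), edgeR (-1.76), DESeq2 (-1.75) and a replicate block (-0.49) also gave a negative sign for MIF2 in HI28. The F-box associated gene AT4G22390 was also active in wt inflorescences, with 13.6, 27.4 and 21.9 in wt CI28 and 81.5, 78.7, 73.1 and 79.7 in ddm1 CI28 (log2 fold change 1.90 ± 0.25 (SE), limma adjusted p = 0.000193).

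In wt, reads of the 57 genes were found in every group. The sum of the genes was 34.2 ± 12.3 normalized counts in wt HT7 (SD, n = 4) and 64.7 ± 25.02 in wt HS7 (SD, n = 8), which like the day-28 groups did not take part in the selection. It was 54.9 ± 3.66 normalized counts in wt CI28 (SD, n = 3), 192 ± 128.0 in wt HI28 (SD, n = 4), 194.8 ± 155 in wt CS28 (SD, n = 4) and 408.6 ± 258 in wt HS28 (SD, n = 4). MIF2 alone had a mean of 123.1 in wt HI28, where 51 of the 57 means were under 2. Single wt CS28 libraries detected 24 to 43 of the genes, with sums of 76.5, 100.1, 416 and 186. Libraries of this group thus differed widely, and the third library was the highest. In poliv HS28 the sums were 154.5, 268, 770 and 1407. In comparison, ddm1 CS28 had 9229 ± 463 (SD, n = 4) and ddm1 HS28 6982 ± 1117 (SD, n = 3), and no wt or poliv library reached the lowest ddm1 library of its condition. The origin of the differences between wt or poliv libraries was not tested.

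In poliv, a single member was called against wt, in each of the 4 conditions of day 28. Of the 57 means, 50 were under 2 in poliv HT7, 50 in HS7, 50 in CI28, 42 in HI28, 22 in CS28 and 12 in HS28. In wt, 51, 50, 50, 51, 28 and 17 were under 2 in the same order. In HS28, 18 means were at least 10 in poliv and 14 in wt. The comparisons of poliv and wt use the same wt libraries as those of ddm1. In controls at day 7, where wt levels chose the members, the sum was 303.5 ± 32.7 normalized counts in poliv CT7 (SD, n = 3) and 370 ± 74.3 in poliv CS7 (SD, n = 8), and 50 of the 57 means were under 2 in poliv CT7. AT3G29639 alone had means of 166.1 in poliv CT7 and 304.8 in poliv CS7, where 47 of the 57 means were under 2. By limma, 0 of 2 tested members were called in HT7 (0.106% of all nuclear genes in either direction) and 0 of 4 in HS7 (0.182%), with 0 members at an unadjusted p under 0.05 in either, and edgeR and DESeq2 gave 0 calls too. In CI28 1 of 5 tested members was called (0.121% of all genes), in HI28 1 of 5 (0.0563%), in CS28 1 of 18 (0.375%) and in HS28 1 of 32 (0.0228%). The other members had a mean under 5 over the libraries compared and were not tested.

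The member called in all 4 of these comparisons was AT3G29639, an uncharacterized protein. Its closest copy, AT5G11430, has domains of transcription elongation factors and was expressed in wt and ddm1 controls. The copy is 93.6% identical over 83.1% of AT3G29639, and how reads were divided between them was not tested. AT3G29639 had 37.5, 46.8, 42.5 and 59.1 normalized counts in poliv CI28 and 5.10, 0 and 0.954 in wt CI28 (log2 fold change 4.36 ± 0.52 (SE), limma adjusted p = 0.00177). It had 53.6, 39.4, 48.0 and 35.4 in poliv HI28 and 0 in all wt HI28 libraries (log2 fold change 5.48 ± 0.46 (SE), limma adjusted p = 2.46e-05). In nuclei it had 152, 100.3, 101 and 93.9 in poliv CS28 and 5.21, 5.19, 6.89 and 2.06 in wt (log2 fold change 4.32 ± 0.38 (SE), limma adjusted p = 9.06e-06). The poliv libraries were above every wt library in these conditions. In CI28 the call was lost with the replicate number as a block (limma adjusted p = 0.0980). In HS28 the call (log2 fold change 3.31 ± 0.52 (SE), limma adjusted p = 0.0194) was lost without poliv HS28 replicate 1, 2 or 3, when the limma adjusted p was 0.215, 0.271 and 0.111, with log2 fold changes of 3.27, 3.16 and 3.21. The HS28 call was also lost in edgeR (adjusted p = 0.0952). In ddm1 the mean of the gene was higher still at day 28, such as 315 in CS28 against 112 in poliv. In HS7 it was not higher, with 27.8 in ddm1 and 31.0 in poliv. Differences between the mutants were not tested.

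Other members with some transcript in poliv were seen in the day-7 controls. AT1G59930 had 85.6, 88.1 and 46.8 normalized counts in poliv CT7 and AT1G59920 had 43.6, 15.5 and 32.6, compared with means of 14368 and 2974 in ddm1 CT7. The MADS-box pair was therefore detected in every poliv CT7 library, at a small share of its level in ddm1. In poliv HT7, AT1G59920 was 0 in all libraries and AT1G59930 had 4.81, 6.68, 1.45 and 0. AT3G54730 had 9.94, 8.60, 5.97 and 14.8 in poliv CI28 and 1.70, 1.14 and 6.68 in wt CI28 and was not called (log2 fold change 1.55 ± 0.60 (SE), limma adjusted p = 0.556). In HI28 every poliv library of AT3G54730 was above every wt library, without a call (log2 fold change 1.95 ± 0.52 (SE), limma adjusted p = 0.520). It was not called in CS28 (log2 fold change 1.98) or HS28 (0.78) either. In HT7 and HS7 it was not tested, with means of 6.02 and 6.91 in poliv and 1.55 and 0.102 in wt.

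Directly after heat, the genes differed from control in both directions in ddm1. Because the control values took part in the selection, this is a description. In seedlings, all heat libraries were lower than all control libraries for 18 members and higher for 7, beside 31.2% and 23.2% of all nuclear genes with the required mean. In stem cell nuclei 8 members were lower and 3 higher in this sense, beside 8.08% and 4.08%. The median log2 ratio of heat over control was -0.38 for the members and -0.17 for all genes in seedlings, and -0.45 and -0.04 in nuclei. Nothing is read from these shares, since members were chosen for high control values. Of the 57, 5 were lower in both materials, 3 higher in both and 0 opposite. No share over all genes was taken for these counts, so nothing is read from them either.

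The MADS-box pair had the largest decrease by group means in seedlings. AT1G59930 went from 16572, 20071, 12054 and 8777 normalized counts in ddm1 CT7 to 60.6, 76.3, 19.96 and 10.9 in ddm1 HT7, 342.6-fold lower by the means. AT1G59920 went from 2974 to 15.2 by group means, 195-fold lower. Libraries of AT1G59930 did not overlap, and the ranges lay far apart. AT3G29639 went from 266 to 9.05 in seedlings and from 749.5 to 27.8 in stem cell nuclei. AT5G29560, the caleosin-related gene, went from 449.5 to 7.21 in stem cell nuclei, where single heat libraries ranged from 0 to 37.4 and control libraries from 332 to 682.

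Among the genes that were higher after heat, AT2G07213, a long non-coding RNA, was above control in both materials. It had 31.7, 25.8, 36.4 and 28.3 normalized counts in ddm1 CT7 and 333, 290.2, 470.3 and 406 in ddm1 HT7. In stem cell nuclei its lowest, median and highest values were 94.8, 109.7 and 153 in CS7 and 249, 374 and 613 in HS7. The pseudogene AT5G35070 and AT5G39770, named for a restriction endonuclease fold, were the other two genes above control in both. In seedlings alone, group means went from 76.9 to 1005 for the myosin heavy chain-like gene AT1G32010, from 15.7 to 258 for the hydroxyproline-rich glycoprotein gene AT1G63540 and from 10.6 to 147 for the pseudogene AT2G04120. These names were picked after their values were seen.

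**Figure D5:**
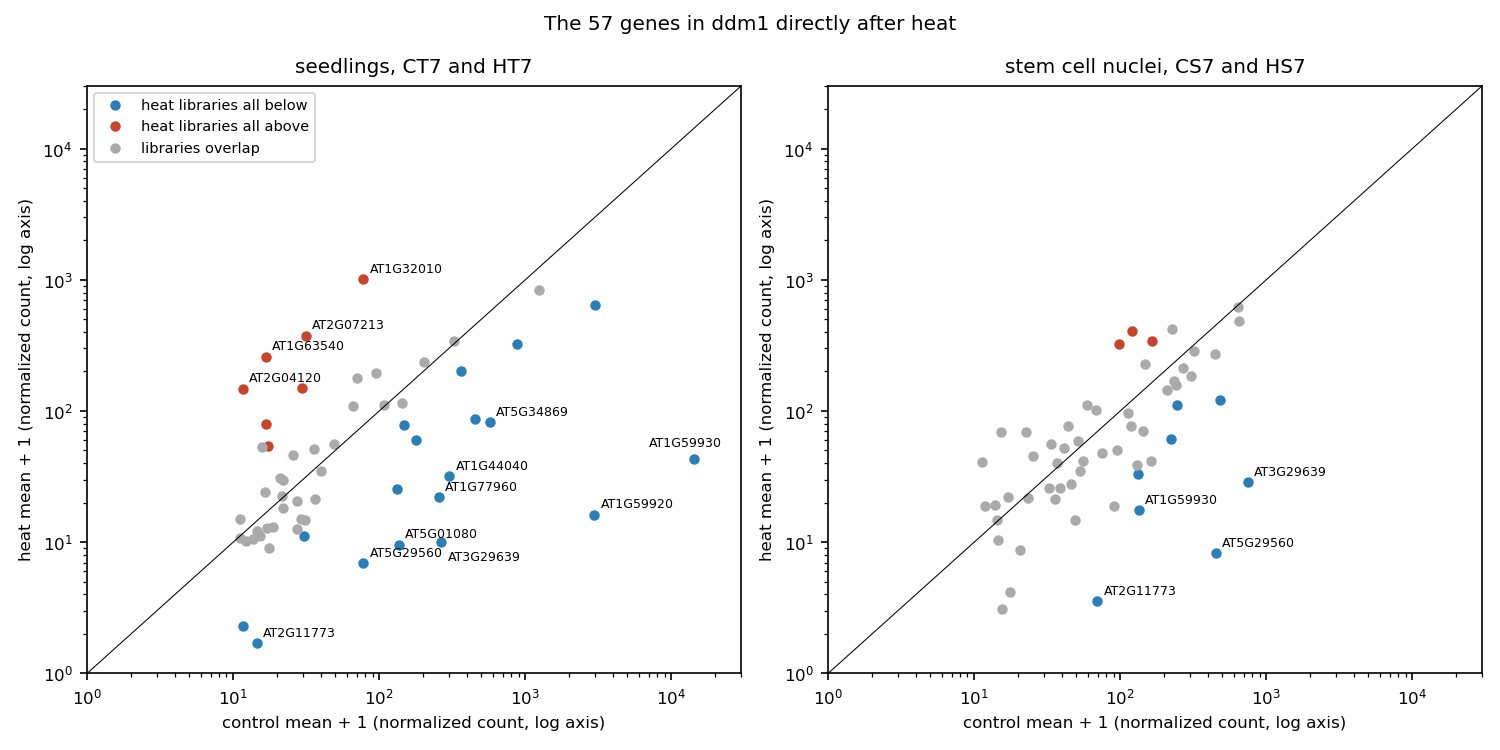
Mean normalized count + 1 of the 57 genes in ddm1 after heat (y axis) against control (x axis), both on log axes, for seedlings (left) and stem cell nuclei (right), with points colored by whether all heat libraries lie below (blue), above (red) or among (grey) the control libraries and a line of equality. AT1G59930 and AT1G59920 lie far below the line in seedlings, and 3 genes lie above the line without overlap in nuclei.

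In wt nonstem nuclei at day 7, limma called 2 of the 4 tested members, both higher after heat. Of all nuclear genes tested, 39.3% were called in either direction, 2782 of 18245 as higher. Both members reached the mean needed for a test mostly through the heated libraries. With 4 members tested, nothing is read from the count, and edgeR tested no member here. AT2G07213 had values of 1.98, 0, 0, 0, 0 and 0 normalized counts in wt CN7 and 4.04, 48.6, 21.0, 34.4, 32.4 and 51.5 in wt HN7 (log2 fold change 4.46 ± 0.72 (SE), limma adjusted p = 1.3e-05). AT3G29639 had 0, 0.857, 0, 10.9, 0 and 0 in wt CN7 and 2.69, 9.60, 18.4, 6.75, 9.54 and 16.9 in wt HN7 (log2 fold change 2.60 ± 0.79 (SE), limma adjusted p = 0.00836). AT2G07213 was higher after heat in every library, while for AT3G29639 the fourth control library lay among the heated ones. The mean of AT2G07213 was 32.0 in wt HN7 and 375 in ddm1 HT7, which are other materials and were not compared. AT2G07213 overlaps AT2G07215, so reads of the pair cannot be told apart.

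After recovery, 21 days past the heat, no member was called in inflorescences. The tested and called numbers were 3 and 0 in wt (0% of all genes called), 5 and 0 in poliv (0.966%) and 54 and 0 in ddm1 (0.774%) by limma. At an unadjusted p under 0.05 there were 0, 1 and 6 members, and edgeR gave 0 calls in each while DESeq2 gave 0, 0 and 1. In ddm1 the DESeq2 call was MIF2 (AT3G28917), with 7.41, 9.70, 10.8 and 1.11 normalized counts in CI28 and 54.7, 16.1 and 37.9 in HI28 (log2 fold change 2.28 ± 0.62 (SE), limma adjusted p = 0.136). AT1G32010, which was high directly after heat, was called without ddm1 CI28 replicate 4 but not with all libraries (log2 fold change 1.07 ± 0.33 (SE), limma adjusted p = 0.201). Same-numbered wt CI28 and HI28 libraries deviated together, and with the replicate as a block 201 nuclear genes were called in wt but still 0 members.

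In stem cell nuclei after recovery, limma called 0 of 24 tested members in wt (0% of all genes), 0 of 30 in poliv (0.0651%) and 0 of 56 in ddm1 (0.244%). At an unadjusted p under 0.05 there were 2, 0 and 23 members, edgeR gave 0 calls in each, and DESeq2 gave 0, 0 and 5. The 5 in ddm1 were all lower after heat. The median log2 fold change of the members in ddm1 was -0.46, with 0.07 for all nuclear genes. Marker sums also differed between these groups without overlap, with 48498 to 59487 in CS28 and 24927 to 39784 in HS28 for 6 leaf mesophyll markers, 1565 to 1938 and 1227 to 1548 for 7 floral organ markers, and 80.5 to 113 and 149.8 to 278 for 2 phloem markers. All of these markers were detected, and their part in the result was not tested. AT2G15555 had 625, 634, 489 and 481 normalized counts in ddm1 CS28 and 453, 176 and 225 in ddm1 HS28 (log2 fold change -1.07 ± 0.28 (SE), limma adjusted p = 0.139). AT4G16215 had 304, 268, 176 and 178 in CS28 and 285, 39.5 and 58.8 in HS28, and its first heat library lay among the controls. Without this library, ddm1 HS28 replicate 1, 10 members were called lower, among them AT2G15555, AT4G16215, AT5G33251 and AT5G41660. Calls in this comparison thus differed with 1 library. With all libraries kept, they differed with the tool (DESeq2, 5) and the filter on low values (no filter, 1). Over all nuclear genes 50 were called, and between 1 and 420 under the other tools and settings. No share over all genes was taken for the unadjusted p-values or the fits without 1 library. Nothing particular to the members is therefore read from these counts.

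Within ddm1, stem cell nuclei and inflorescences of control plants at day 28 shared the genes but not their levels. Of 55 tested members, 17 were higher in CS28 and 17 lower, where 51.2% of all nuclear genes were called. Nuclei and tissue differ in cells and in the kind of RNA, which cannot be told apart. AT1G59920 (-4.95 ± 0.40 log2 ± SE, limma adjusted p = 3.03e-06) and AT1G59930 (-4.20 ± 0.27, adjusted p = 9.35e-09) were the lowest in nuclei relative to tissue. AT2G15555 was next (-3.37 ± 0.18, limma adjusted p = 1.05e-09). AT2G05642, a protein with an OB-fold known from nucleic acid binding, had 25.4, 32.3, 39.6 and 26.6 normalized counts in CI28 and 263, 231, 337 and 283 in CS28 (log2 fold change 3.13 ± 0.20 (SE), limma adjusted p = 3.71e-09). AT2G11620 had 18.0, 26.9, 31.2 and 17.7 and 170.1, 216, 231 and 264 (log2 fold change 3.20 ± 0.23 (SE), limma adjusted p = 1.46e-08), and AT2G11773 had 6.35, 8.62, 0 and 6.64 and 55.6, 58.0, 40.9 and 54.9 (log2 fold change 3.46 ± 0.61 (SE), limma adjusted p = 0.000253). For these 3 genes every library of nuclei was above every library of inflorescences.

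Genes that act in silencing were compared in the same way, as a list of 42 genes of DNA methylation, small RNA and heterochromatin pathways. In CI28, 2 of 40 tested were lower in ddm1, where 2.75% of all nuclear genes were lower. These were DDM1 itself (log2 fold change -3.42 ± 0.45 (SE), limma adjusted p = 0.000175) and the DNA demethylase gene ROS1 (log2 fold change -1.28 ± 0.21 (SE), limma adjusted p = 0.00116). In HI28 DDM1 and ROS1 were again the 2 lower genes of 40 tested (3.67% of all genes). In CS28 ROS1 and the related demethylase gene DML3 were lower, 2 of 41 (5.27% of all genes), where edgeR and DESeq2 each called 1 lower gene. In HS28 ROS1 was the 1 lower gene of 40 (1.03% of all genes), a call that edgeR and DESeq2 did not make, and DDM1 the 1 higher gene (log2 fold change 2.38 ± 0.42 (SE), limma adjusted p = 0.00219). In HS7, 7 of 42 were lower (3.45% of all genes), among them the genes of the heterochromatin histone H2A.W6 (log2 fold change -3.66 ± 0.76 (SE), limma adjusted p = 0.000889), of CLSY1, which recruits RNA polymerase IV (log2 fold change -2.12 ± 0.67 (SE), limma adjusted p = 0.0265), and of SUVH9 (log2 fold change -1.65 ± 0.48 (SE), limma adjusted p = 0.0164). The sums of 5 shoot meristem markers (415 to 790 in wt, 54.2 to 360 in ddm1) did not overlap in HS7. Those of 2 epidermis markers (391.9 to 1262 and 19.7 to 252) did not either, while the other marker sums overlapped. Their part in the HS7 values of the silencing genes was not tested. In HT7, limma called 0 of 37 (0.37% of all genes were lower), with 2 at an unadjusted p under 0.05, and edgeR and DESeq2 called 0. Between poliv and wt, ROS1 was lower in CI28 (log2 fold change -3.24 ± 0.35 (SE), limma adjusted p = 0.00143), in CS28 (log2 fold change -2.71 ± 0.19 (SE), limma adjusted p = 6.14e-07) and in HS28 (log2 fold change -2.69 ± 0.23 (SE), limma adjusted p = 1.82e-05). In HI28 it did not pass the test (log2 fold change -2.75 ± 0.62 (SE), limma adjusted p = 0.698), and in HT7 and HS7 it was not called either. Other settings called 1 gene of the list lower in poliv HI28, and these counts do not name it. They were limma with no filter on low values (lowest adjusted p of the list 0.0267) and DESeq2 (lowest adjusted p 0.0146).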

How the data were processed

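RNA was sequenced from 128 Arabidopsis libraries in 26 groups, from 10 plants per tissue library or 100 sorted nuclei per library of nuclei. The authors deposited 1 table of normalized counts (a signal, not raw counts), made with the nextflow rnaseq pipeline with clipping, counted on TAIR10 genes and transposable elements and divided by DESeq2 size factors. The submitters' processing notes also name bedtools 2.27, and aligner, strand and treatment of multi-mapping reads are not given in the sources used here. All other columns (52) were the authors' means and SDs and were not used. Values of all 128 libraries were whole multiples of 1 read within 0.1, so reads were recovered.

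Members and lists were chosen with earlier results of these data known. Groups were compared with limma 3.58.1 (R 4.3.3, trend and robust) on log2(normalized count + 1), using the 2 groups compared and features (nuclear and organelle genes and transposable elements) with a mean of at least 5. Fold changes on this scale understate those of low genes. P-values were adjusted by Benjamini-Hochberg over all features tested, and calls needed an adjusted p below 0.05 and a log2 fold change beyond 1. Alternatives were pseudocount 5, no filter, edgeR 4.0.16 (TMM, quasi-likelihood) and DESeq2 1.42.0 (Wald) on recovered reads, a replicate block, each library left out (173 fits) and other selection limits. The code was tested on simulated data. Same-numbered libraries all correlated above 0.1 in their deviations between poliv and wt HI28 (0.199 to 0.409), poliv and wt HS28 (0.149 to 0.44) and wt HI28 and CI28 (0.223 to 0.238), which was taken as pairing.

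Copies were found with blastn 2.17.0 and proteins aligned with Biopython 1.88 on the RefSeq annotation of TAIR10.1. The upstream sequence of 1 ovate gene is not reported here. Named were the 12 highest and 3 lowest members in ddm1 at day 28, the 3 highest in wt or poliv groups, 2 genes on either side of each limit, up to 3 called members per direction and members with near-identical proteins. HISN6B, AT4G22390, AT2G07213 and the genes named for heat at day 7 or for leaving out a library were chosen after their values were seen. Tables and plots used pandas 2.3.3 and matplotlib 3.10.9.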

Additional observations from a re-analysis of the deposited data

Results flagged for a closer look

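Libraries were compared within groups of 4 to 10 by the gap of the extreme value to its nearest neighbour. The sum of the 57 genes was compared in all such groups, but single named members in ddm1 groups only. In 124 such comparisons 10 values stood apart, where chance gives about 1 in 20 groups. All were from ddm1 libraries, where most of the comparisons were made, so nothing about the genotype is read from this. In HT7 replicate 4, AT2G15555 was at 407.4 normalized counts (679 to 732 in the other libraries) and AT4G29200 at 46.2 (122 to 136). AT5G41660 was at 80.6 in CS7 replicate 1 (131 to 172 in the others). In HS7, AT1G77960 was at 34.5 in replicate 4 (0 to 11.1), AT3G54730 at 169 (20.8 to 85.4), AT5G29560 at 37.4 (0 to 10.09) and AT5G35050 at 62.9 (0 to 27.2) in replicate 3, and AT5G38190 at 59.9 in replicate 6 (117 to 153). In CI28 the sum of the 57 genes was 27716 in replicate 4 (22379 to 23247), and AT5G35050 was at 1.06 in replicate 1 and 0 in the others. This value of AT5G35050 stands for 1 read.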

How the results depend on the processing

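No reported count of members reversed under an alternative. Between ddm1 and wt every count of members stayed within 1.5 times the reported one under the other tools and settings (edgeR 37, 33, 48, 49, 53 and 33, DESeq2 53, 50, 51, 53, 53 and 40, in HT7, HS7, CI28, HI28, CS28 and HS28). Leaving out each library gave 40 to 47, 48 to 50, 49 to 51, 47 to 51, 52 to 54 and 22 to 33. Other limits gave 28 or 141 members. Between poliv and wt, the replicate block gave 0 in CI28 and edgeR 0 in HS28, where leaving out libraries gave 0 to 1. Between wt HN7 and CN7, edgeR gave 0 (no member was tested there), and leaving out libraries 2 to 3. Between poliv HI28 and CI28, no filter gave 2. Between ddm1 HI28 and CI28, DESeq2 gave 1, the replicate block 1 and leaving out libraries 0 to 1. Between ddm1 HS28 and CS28, no filter gave 1, DESeq2 5 and leaving out libraries 0 to 10. The cause of these differences was not tested. The block left 1, 1 and 0 members where numbers paired the libraries. Where numbers did not pair them, it gave 47, 47, 51, 51, 53 and 39 members for ddm1 and wt in the order above, 35 for ddm1 CS28 and CI28 and 2 for wt HN7 and CN7. Counts over all nuclear genes moved more, from 310 to between 261 and 522 for ddm1 in HT7, from 1589 to between 765 and 1656 in HS7, from 50 to between 1 and 420 for ddm1 HS28 and CS28, and from 132 to between 100 and 376 for ddm1 HI28 and CI28. For poliv and wt they ranged over 16 to 199 (HT7, reported 17), 12 to 89 (HS7, 32), 8 to 56 (CI28, 21), 10 to 43 (HI28, 10), 74 to 129 (CS28, 76) and 3 to 15 (HS28, 5), and for heat at day 28 over 0 to 201 (wt HI28 and CI28, 0), 157 to 351 (poliv HI28 and CI28, 170), 0 to 1 (wt HS28 and CS28, 0) and 1 to 53 (poliv HS28 and CS28, 14).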
